A study of Drosophila melanogaster with 12 samples.

Results

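The genes described here encode 4 proteins of synaptic vesicle release: Rab3, unc-13, Rop and alphaSnap. They were chosen by name, as vesicle priming and fusion genes with a single gene symbol in the array's annotation, updated through the Entrez identifier, and make up 4 of 6793 such genes on the array. They are carried by 5 probes, since unc-13 has 2.

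At a synapse, vesicles filled with transmitter are brought to the membrane, made ready for fusion (primed), and fused by SNARE proteins, which zip together and must be pulled apart before they can be used again. In the fly, Rab3 is the small GTPase carried on the vesicle that also helps to place release machinery at the neuromuscular junction. The unc-13 protein is the priming factor without which evoked release fails, Rop is the Sec1/Munc18 protein that binds syntaxin, and alphaSnap is the adaptor through which the NSF ATPase takes spent SNARE complexes apart. The question asked of these genes comes from the drugs, since levetiracetam (LEV) is an antiepileptic that binds the vesicle protein SV2A of mammals, and pentylenetetrazole (PTZ) provokes seizures by blocking GABA-gated chloride channels.

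RNA came from heads of unmated Oregon-R wild-type males of *Drosophila melanogaster*, kept in vials of 30. The labels give an age of 3 to 4 days, yet the protocol for growth describes a further 10 to 11 days of keeping, so the age at harvest is unclear. Treated flies ate food with 8 mg/ml PTZ and 5 mg/ml LEV for 12 h or for 2 days, or for 4 days followed by 3 days on 8 mg/ml PTZ alone, taken at day 7. Control flies ate normal food for the same time, and no group received either drug alone from the start, so an effect of LEV cannot be told apart from one of PTZ. The series text in one place names LEV for the last days before day 7, but the treatment protocols of all these samples name PTZ. Sample titles of day 7 name only PTZ with LEV on replicates 1 and 2, and add a further PTZ on the dye swaps. Each of the 12 two-colour arrays, 4 per time, set pooled heads of treated flies against pooled heads of control flies. The treated RNA was in Cy5 on replicates 1 and 2 of a time and in Cy3 on replicates 3 and 4, the dye swaps.

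The values are log2 ratios of the channels. Arrays held values for 1394 to 14042 of 27648 spots, the largest number by far on 7 d replicate 4, and array medians ran from -0.69 to 0.85, so every value below is given after subtracting the median of its array. The labels and the series text do not say whether they are Cy5 over Cy3 or had been turned to treated over control by the authors. Values per array are therefore given as deposited. Means are given in both readings: turned, with the sign of replicates 3 and 4 reversed, which holds if the ratios are Cy5 over Cy3, and as deposited, which holds if they are treated over control. Replicates 1 and 2 read the same way in both, as treated over control. In heads, fewer cells of a type and less RNA per cell cannot be told apart. Of 8 neuronal marker genes, 2 were on the array by single symbol, nSyb with a value on 2 arrays and Appl on 1, and all 7 eye markers on the array had values.

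The 4 genes differed in how often they gave a usable value. The alphaSnap probe had values on 10 of 12 arrays, as many as only 0.82% of the 7558 probes with 1 symbol. Rab3 had values on 7 arrays, reached by 2.42% of those probes, and the better measured unc-13 probe had values on 6, reached by 3.41%. Rop had a value on 1 array, which 66.8% of the probes equalled or exceeded. At 2 d alphaSnap alone among the 4 had values, on all 4 arrays, while Rab3, unc-13 and Rop had 0. The number of arrays with a value reflects the authors' spot filters and is not an expression level.

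**Figure D1:**
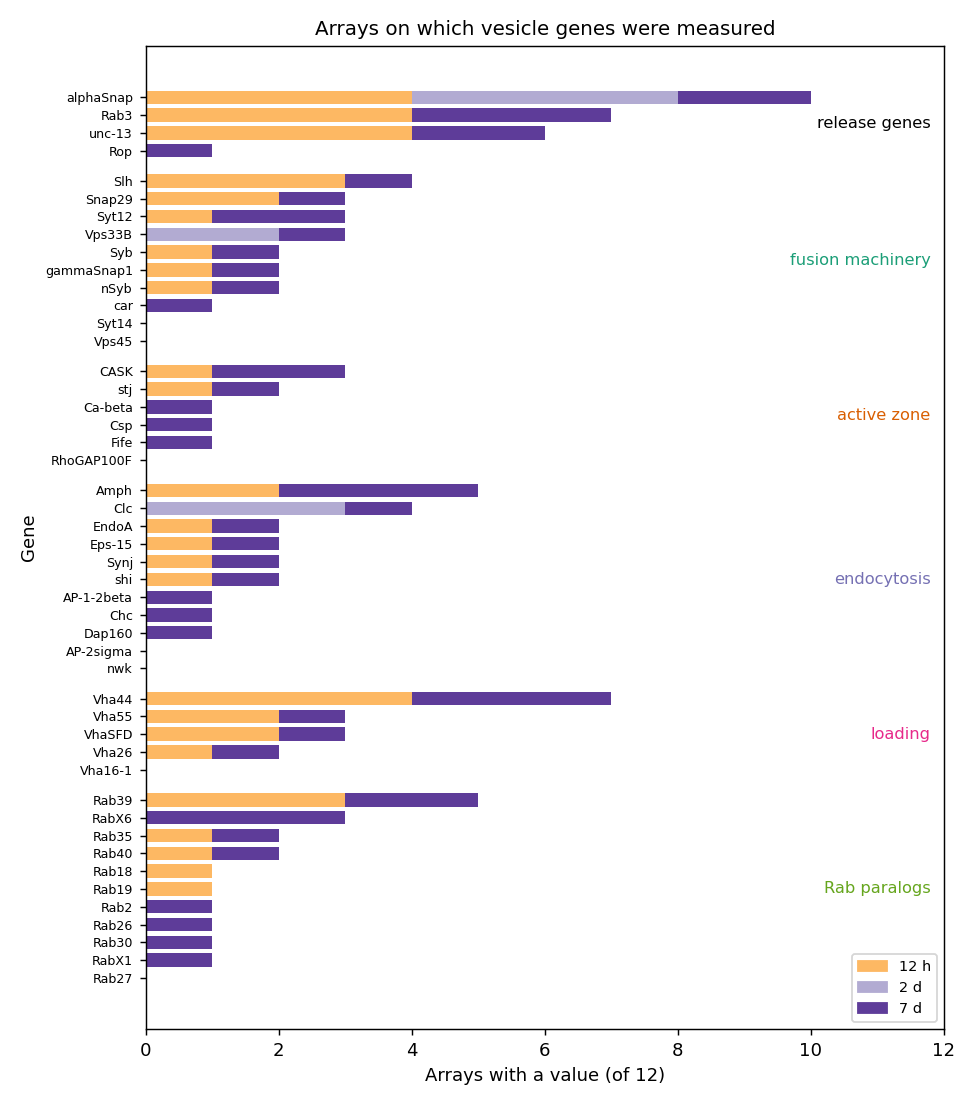
Bars give the number of arrays (of 12) on which each gene's probe had a value, coloured by time (12 h, 2 d, 7 d), for the 4 release genes and the other vesicle genes on the array. The alphaSnap bar reaches 10, and Vha44 is the one other gene of the wider list with 6 or more.

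As deposited, Rab3, the vesicle GTPase, lay below the array median on 6 of the 7 arrays that measured it. Turned, it lay above the median on 4 of the 7. At 12 h its centred ratios as deposited were -0.92, -0.16, -0.29 and -0.20 on replicates 1 to 4. At 7 d they were 0.09, -0.76 and -0.31 on replicates 1, 2 and 4. The 2 lowest values, 12 h replicate 1 and 7 d replicate 2, were both on Cy5-treated arrays, and they stood lower than all but 11.9% and 7.7% of their arrays' probes. The 2 spots of Rab3 differed by 0.22 and 0.07 on those arrays. The values of 12 h and 7 d overlapped. All 4 arrays of 12 h lay below the median as deposited, and 21.5% of the probes tested at 12 h had the same sign on every array in that reading.

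Over the 4 Cy5-treated arrays, which need no choice of reading, Rab3 averaged -0.44. The values ranged widely, with -0.92 and -0.16 at 12 h and 0.09 and -0.76 at 7 d. These arrays share a single dye orientation, so a dye effect on the probe is not balanced, and this mean was not tested. Turned, it averaged -0.15 ± 0.55 at 12 h (SD, n = 4 arrays) and -0.12 ± 0.56 at 7 d (n = 3). In limma, a moderated linear model fitted over all probes that 3 or more arrays of the time measured, these means had adjusted p values of 0.951 and 0.966 (Benjamini-Hochberg). As deposited they were -0.39 ± 0.35 and -0.33 ± 0.43, with adjusted p in limma of 0.717 and 0.724. Turned, the mean at 12 h became 0.11 without replicate 1, and the mean at 7 d became 0.20 without replicate 2. The difference of 7 d minus 12 h was 0.03 (95% interval -1.22 to 1.27) when these times were fitted together, with an adjusted p of 0.997 in limma over 736 probes. That difference changed sign without 12 h replicate 1 (-0.23), without 7 d replicate 1 (-0.08) or without 7 d replicate 4 (-0.19).

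For unc-13, the priming factor, the arrays of 12 h lay on both sides of the median. The probe with 6 values stood at 0.23, -0.39, 0.20 and -0.33 on replicates 1 to 4 at 12 h, and at 0.27 on replicate 2 and -0.77 on replicate 4 at 7 d. The largest size was on 7 d replicate 4, where 12.0% of probes were lower and the 2 spots differed by 0.69. Turned, the mean at 12 h was -0.01 ± 0.34 (n = 4), with an adjusted p of 0.989 in limma, and as deposited it was -0.07 ± 0.33, with 0.942. The turned mean became 0.12 without replicate 2 and 0.05 without replicate 3. At 7 d the turned mean was 0.52 ± 0.36 and the mean as deposited -0.25 ± 0.74 (n = 2). Once probes with 2 arrays were admitted, the turned mean had an adjusted p in limma of 0.915 over 1606 probes.

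The other unc-13 probe had values on 3 arrays, all dye swaps, and did not always side with the first. On 12 h replicate 3 it stood at 0.84, against 0.20 for the first probe. On 12 h replicate 4 it stood at 0.49, against -0.33, so the probes fell on opposite sides of the median there. On 7 d replicate 4 both were below it, at -0.87 and -0.77. The gap of the probes on 12 h replicate 4 was larger than the difference between the spots within either probe on that array (0.31 and 0.23). With 2 arrays admitted, the second probe's turned mean at 12 h was -0.66 ± 0.25 (n = 2), with an adjusted p of 0.847 in limma over 2312 probes. As deposited it was 0.66 ± 0.25, and since both arrays were dye swaps its sign rests wholly on the reading.

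Rop, the syntaxin-binding partner, was measured on 7 d replicate 4 alone, with a centred ratio of 0.49 as deposited. Its spots differed by 0.64, a larger difference than 73.7% of the spot pairs of that array showed. With 1 array there is no replicate check on Rop. On the same array the other release genes lay on the other side of the median, unc-13 at -0.77 and -0.87, Rab3 at -0.31 and alphaSnap at -1.55.

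The alphaSnap gene, whose product takes SNARE complexes apart with NSF, is the one release gene seen at all 3 times. At 12 h its centred ratios as deposited were 0.04, -0.57, -0.67 and -0.23 on replicates 1 to 4. At 2 d they were 0.15, -0.76, 0.05 and 0.19. At 7 d they were -0.47 and -1.55 on replicates 3 and 4. At 2 d, 3 of the 4 arrays lay within 0.20 of the median, with spots that differed by 0.03 to 0.20, and replicate 2 stood apart. Both 7 d values came from dye swaps, so their sign rests wholly on the reading.

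The spots of alphaSnap differed by 1.95 on 12 h replicate 2, one at -0.70 and the other at 1.25 as deposited and uncentred, so the mean used for that array rests on a pair that disagrees more than 90.4% of the array's pairs. On 7 d replicate 4 they differed by 0.20, and 1.5% of the array's 7102 probes had a lower ratio. The other arrays measured 781 to 3798 probes, so the median and shares of 7 d replicate 4 refer to a broader set of probes. That array gave the most extreme of all release gene values. On it, the 4 measured eye markers lay below the median as deposited, from -1.49 to -0.44, and so did both fat body markers (-1.07 and -0.80), 1 of 2 glia markers, 1 of 2 muscle markers and the 1 neuronal marker measured, nSyb at -0.69. Their part in the alphaSnap value was not tested.

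Turned, alphaSnap averaged 0.09 ± 0.52 at 12 h (n = 4), -0.21 ± 0.39 at 2 d (n = 4) and 1.01 ± 0.77 at 7 d (n = 2). The adjusted p values in limma were 0.969 at 12 h and 0.995 at 2 d, and 0.899 at 7 d once probes with 2 arrays were admitted. As deposited the means were -0.36 ± 0.33, -0.09 ± 0.45 and -1.01 ± 0.77, with adjusted p in limma of 0.733 at 12 h and 0.856 at 2 d. On Cy5-treated arrays alone they were -0.27 at 12 h and -0.30 at 2 d (n = 2 each), and the turned mean at 12 h became -0.10 without replicate 3. At 2 d it became -0.03 without replicate 2. The difference of 2 d minus 12 h was -0.30 turned (95% interval -1.19 to 0.58), with an adjusted p of 0.996 in limma over 855 probes and an exact two-sided permutation p of 0.371 with 4 arrays against 4. As deposited the same difference was 0.27. Turned, it ranged from -0.53 without 12 h replicate 2 to -0.11 without 12 h replicate 3, and was -0.12 without 2 d replicate 2.

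**Figure D2:**
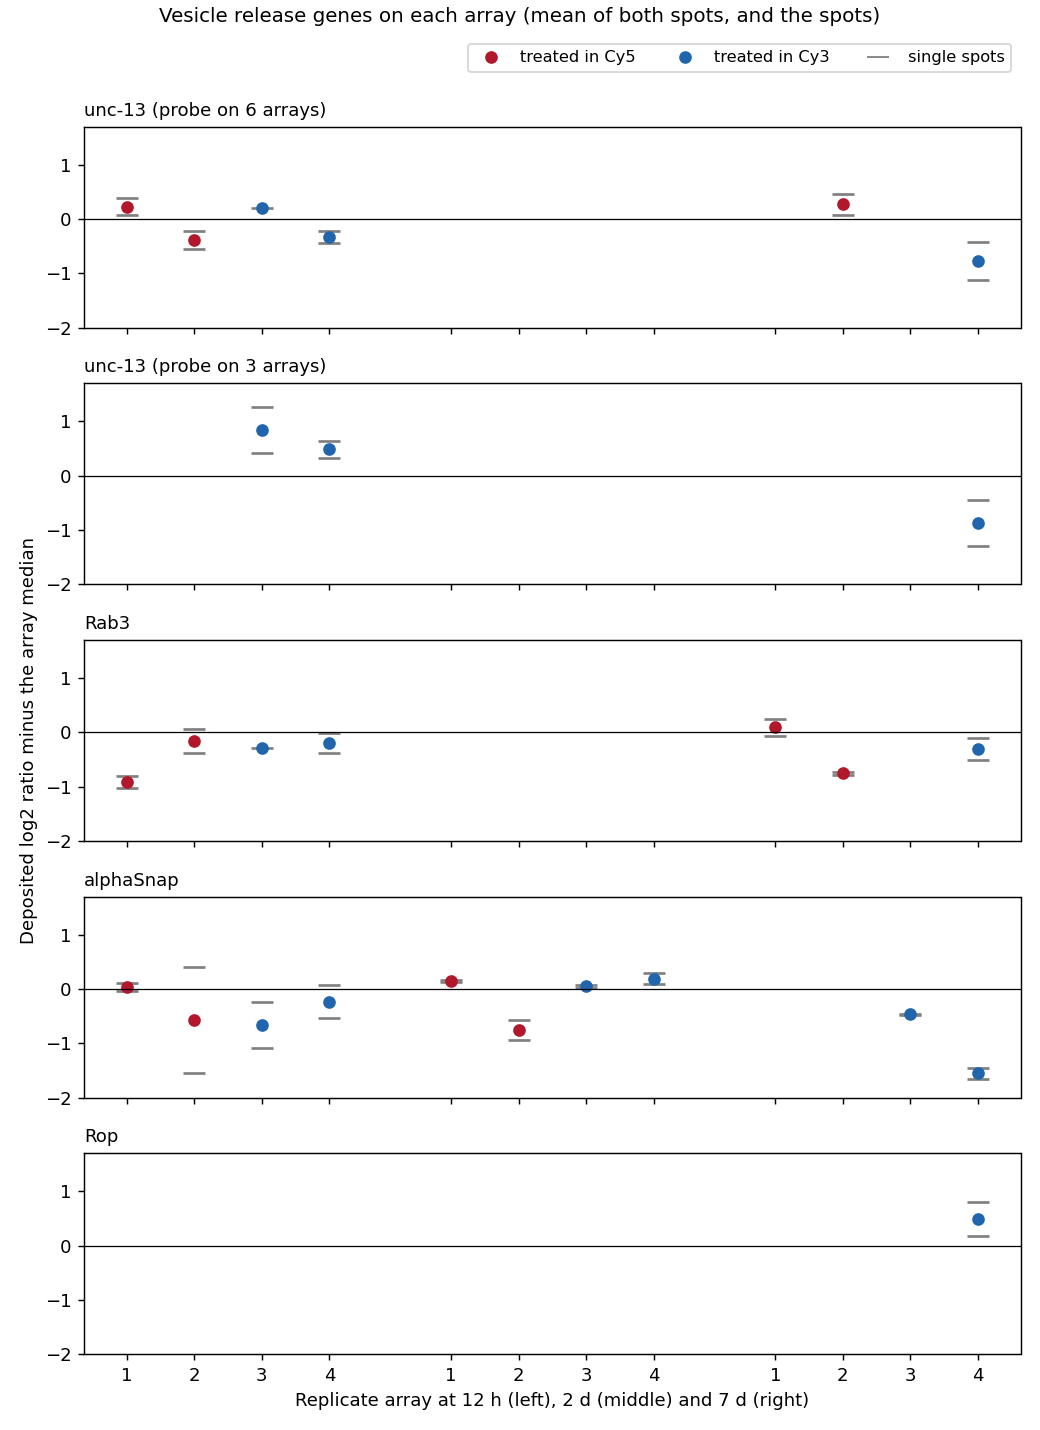
Points give the deposited log2 ratio minus the array median (vertical axis) on each replicate array of 12 h, 2 d and 7 d (horizontal axis), averaged over the 2 spots of a probe, which are drawn as dashes; colour gives the dye of the treated sample. The panels for Rab3 and alphaSnap hold mostly values below 0, the lowest at -1.55, and at 2 d alphaSnap alone has points.

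No release gene that could be tested passed at any time, and neither did any other probe. Under the rule of 3 arrays, Rab3, unc-13 and alphaSnap were tested at 12 h. Only alphaSnap was tested at 2 d and only Rab3 at 7 d. Rop was tested at no time, and the second unc-13 probe only once probes with 2 arrays were admitted. In limma, 0 of 1283 probes passed at 12 h (0%), 0 of 1001 at 2 d (0%) and 0 of 865 at 7 d (0%). At an unadjusted p under 0.05 there were 58 (4.52%), 16 (1.6%) and 34 (3.93%), none of them a release gene. As deposited 0 probes (0%) passed at each time too, with 103 (8.03%), 133 (13.3%) and 69 (7.98%) at an unadjusted p under 0.05. Admitting probes with 2 arrays gave 0 (0%) at 12 h and at 7 d. The fits of 2 times gave 0 of 855 (0%) for 2 d minus 12 h and 0 of 736 (0%) for 7 d minus 12 h, with 27 (3.16%) and 39 (5.3%) at an unadjusted p under 0.05. With 4 arrays the smallest exact sign-flip p is 0.125, so that no single gene could reach 0.05 at 1 time by that test.

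Among the 27 array values of the 5 probes, 16 had under 50% of their array's probes below them as deposited, and 3 had under 10%. The 3 were alphaSnap and the second unc-13 probe on 7 d replicate 4, a dye swap on which they lie at the top end when turned, and Rab3 on 7 d replicate 2, which reads the same both ways. Turned, 12 of the 27 values lay below the array median and 15 above it. The 2 spots of a probe differed by a median of 0.33 over the 25 pairs in which both had a value. Of those pairs, 7 differed by over 0.5, a size that many of the ratios above do not reach.

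**Figure D3:**
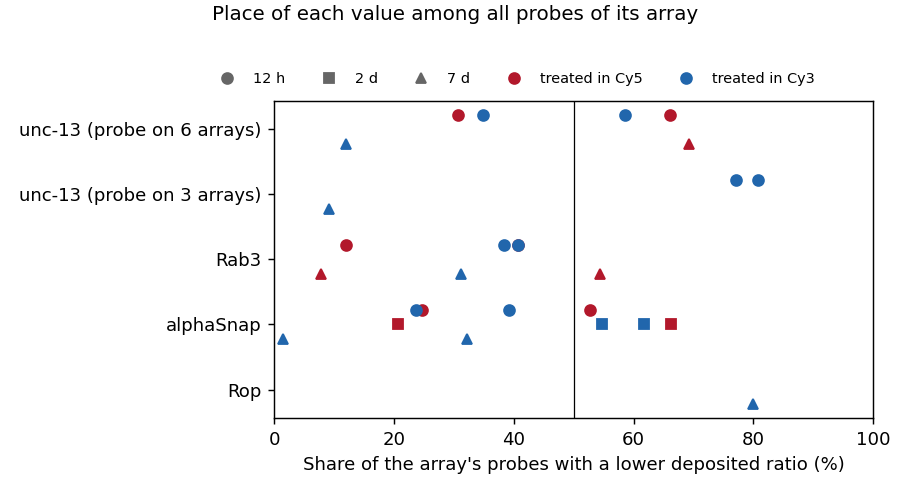
Each point places a release gene value among all probes of its array, as the share of probes with a lower deposited ratio (horizontal axis, in percent); shape gives the time, colour the dye of the treated sample, and the line marks 50%. Points reach down to 1.5% (alphaSnap, 7 d) and up to 80.7% (second unc-13 probe, 12 h), and the Rab3 points of 12 h at 40.6% and 40.7% coincide.

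Taking all times together gave Rab3, unc-13 and alphaSnap a test on 6 or more arrays each. For Rab3 and unc-13 it covers 12 h and 7 d only, since neither had a value at 2 d. The test asks for a mean shared by the times, although the flies of 7 d had spent their last 3 days on PTZ alone. Turned, Rab3 averaged -0.14 ± 0.51 over 7 arrays (95% interval -0.63 to 0.35) and lay above 0 on 4. Its mean went to -0.00596 without 12 h replicate 1 and to -0.03 without 7 d replicate 2. The unc-13 mean was 0.17 ± 0.41 over 6 arrays (-0.33 to 0.67), also above 0 on 4, and went to 0.0457 without 7 d replicate 4 and to 0.28 without 12 h replicate 2. For alphaSnap it was 0.16 ± 0.65 over 10 arrays (-0.30 to 0.62), above 0 on 6, and went to 5.56e-05 without 7 d replicate 4 and to 0.26 without 2 d replicate 2. The adjusted p in limma was 0.963 for each, and 0 of 1156 probes passed (0%), with 55 (4.76%) at an unadjusted p under 0.05.

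As deposited, Rab3 averaged -0.36 ± 0.35 (95% interval -0.76 to 0.03) and alphaSnap -0.38 ± 0.54 (-0.77 to 0.01), while unc-13 averaged -0.13 ± 0.43 (-0.62 to 0.35). Their adjusted p values in limma were 0.288, 0.256 and 0.761. In that reading 24 of 1156 probes passed (2.08%), none of them a release gene and none with a single gene symbol, and 229 (19.8%) had an unadjusted p under 0.05. Of the 6 exact sign-flip tests run on these 3 genes in both readings, the smallest two-sided p values were 0.0312 for Rab3 and 0.0449 for alphaSnap, both as deposited and neither adjusted. The same exact test gave a p under 0.05 for 20.6% of all probes as deposited, and for 10.6% on the lower side, so such a value was common in that reading. Rab3 and alphaSnap both lay on the lower side, and whether the release genes as a set depart from that share was not tested. Turned, the exact test gave a p under 0.05 for 4.93% of all probes. The exact p values of Rab3, unc-13 and alphaSnap were then 0.5, 0.375 and 0.502. Without 12 h replicate 1, the exact p of Rab3 was 0.0625, and without 7 d replicate 4 that of alphaSnap was 0.0898.

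The dyes bear on how far the readings part. For alphaSnap the Cy5-treated arrays averaged -0.28 (n = 4) and the turned dye swaps 0.45 (n = 6). For Rab3 these means were -0.44 (n = 4) and 0.26 (n = 3), and for unc-13 0.03 (n = 3) and 0.30 (n = 3). Over all times, the orientations of Rab3 and alphaSnap thus have opposite signs when dye swaps are turned and the same sign as deposited. For alphaSnap this mixes times, since at 7 d it had values on dye swaps only. At 12 h its Cy5-treated arrays averaged -0.27 and its turned dye swaps 0.45 (n = 2 each). At 2 d these means were -0.30 and -0.12 (n = 2 each), with the same sign turned and opposite signs as deposited. A dye effect on a probe and ratios already turned by the authors cannot be told apart here.

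**Figure D4:**
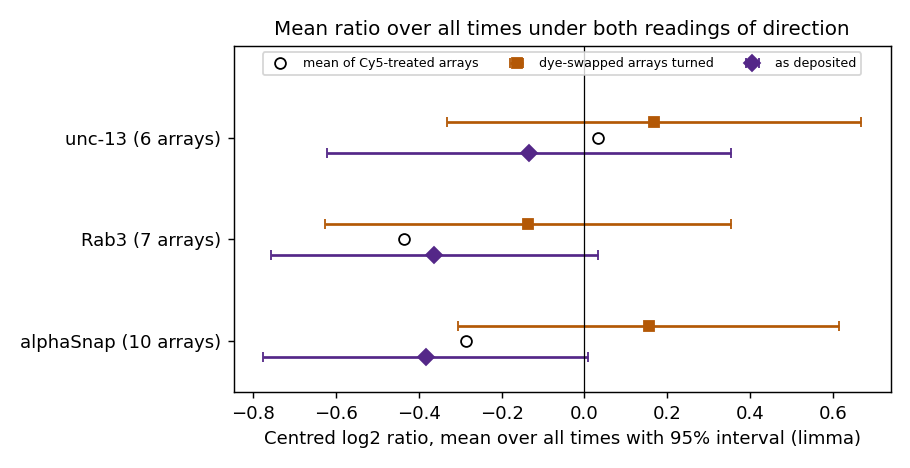
Squares (dye swaps turned) and diamonds (as deposited) give the mean centred log2 ratio over all times with its 95% interval from limma (horizontal axis) for unc-13, Rab3 and alphaSnap, and circles give the mean of the Cy5-treated arrays alone. All intervals include 0, and the alphaSnap means in both readings, 0.16 and -0.38, lie on opposite sides of it.

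The wider vesicle machinery was measured still more thinly. Of 96 genes listed for SNARE fusion, the active zone, endocytosis, vesicle loading and other Rab GTPases, 43 were on the array by single symbol and 36 had at least 1 value. Those with values on 3 arrays of a time numbered 3 at 12 h, 1 at 2 d and 3 at 7 d, and 0 passed in limma at any of them. Turned, 2 of the 3 lay above 0 at 12 h (579 of all 1283 probes did), the 1 at 2 d did (417 of 1001), and 2 of 3 did at 7 d (505 of 865). As deposited, 1 of 3 lay above 0 at 12 h (699 of 1283 probes), 0 of 1 at 2 d (492 of 1001) and 1 of 3 at 7 d (420 of 865).

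Vha44, a subunit gene of the proton pump that powers vesicle filling, was the one gene of the wider list on 6 or more arrays. Its centred ratios as deposited were -0.37, -0.19, -0.16 and 0.25 at 12 h, and -0.01, 0.14 and -0.83 on replicates 1, 2 and 4 at 7 d. It averaged 0.05 ± 0.40 turned and -0.17 ± 0.36 as deposited (n = 7). As for alphaSnap and unc-13, its most extreme array was 7 d replicate 4, a dye swap on which all 4 measured pump subunit genes lay below the median as deposited, from -0.83 to -0.43, and so above it turned. The other sublists were mixed on that array, with 6 of 8 fusion genes, 2 of 5 active zone genes, 4 of 9 endocytosis genes and 4 of 8 Rab genes below the median as deposited.

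Another 4 genes of the wider list had values on 4 or 5 arrays and were picked out after their values were seen. Slh, which encodes a Sec1/Munc18 protein like Rop but acts in transport from the endoplasmic reticulum, averaged 0.06 ± 0.76 turned and 0.48 ± 0.52 as deposited (n = 4). Clc, the clathrin light chain gene, averaged -0.03 ± 0.37 and -0.15 ± 0.32 (n = 4), and was the one gene of the wider list on 3 arrays of 2 d. Amph, the amphiphysin gene, averaged 0.12 ± 0.56 and -0.06 ± 0.57 (n = 5). Rab39, a relative of Rab3, averaged -0.22 ± 0.68 and 0.20 ± 0.69 (n = 5). None of the 4 had a mean larger than its SD over arrays in either reading. The neuronal SNARE gene nSyb, the partner whose complexes alphaSnap helps to take apart, had values on 2 dye swaps and averaged 0.47 ± 0.31 turned and -0.47 ± 0.31 as deposited.

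Genes with the most similar ratios were found by the mean absolute difference in the turned, centred log2 ratio over at least 6 shared arrays. For alphaSnap, among 217 genes, these were CG3625 (0.18 over 6 arrays), Adh, the alcohol dehydrogenase gene (0.22 over 7), and Tsp42Ej, a tetraspanin gene (0.23 over 9). For Rab3, among 96 genes, they were Alg-2 (0.26), Pka-R1, a regulatory subunit gene of protein kinase A (0.30), and CG13868 (0.31), each over 7 arrays. For unc-13, among 86 genes, they were CG10077 (0.26), yps, a Y-box protein gene (0.26), and COX6AL (0.29), each over 6 arrays. Rab3 and unc-13 differed from each other by 0.58 over 6 shared arrays. The median over the genes compared was 0.50 for unc-13 and 0.56 for Rab3. These distances are descriptions over arrays of differing noise.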

How the data were processed

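The authors deposited 1 table of log2 ratios for 12 arrays of the D12Kv1 design. Per the series design text, slides were scanned on a GenePix 4000A, quantified in GenePix Pro 6.0 and ratio-normalized in Acuity 4.0, and spots were filtered on saturation, flags, pixel regression and signal-to-noise. The log base was read from the highest value, 16.61. Signal over background per spot was not used here. The 27648 spots were taken as 13824 adjacent pairs and averaged where at least 1 spot had a value. Symbols, 1 for each of 7558 probes, were updated through Entrez identifiers in RefSeq's Release 6 plus ISO1 MT table (7447 matched). Each array was centred on the median of its probes.

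Mean ratios were tested against 0, two-sided, by lmFit and eBayes of limma 3.58.1 (R 4.3.3) over all probes on at least 3 of 4 arrays of a time, or 6 of 12 over all times, with a threshold of 0.05 after Benjamini-Hochberg adjustment. The fits were tested on simulated data. Contrasts between times needed 3 arrays of every time, which no release gene had, so alphaSnap and Rab3 were compared in fits of 2 times, a choice made after the values were seen. Of a gene's probes, the one on most arrays was used in lists. All 4 genes were named whatever their values, as were wider-list genes on at least 6 arrays and the 3 nearest genes of each. Genes and lists were chosen with earlier results of these data known. Arrays of one time are biological replicates per the labels, and their number limits the precision. Replicate numbers 3 and 4 of 12 h and 7 d follow accession order, as the labels give none. On 2 arrays the source names describe both samples as untreated, and the treated one was taken from the treatment protocols.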

Additional observations from a re-analysis of the deposited data

How the results depend on the processing

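For alphaSnap, unc-13 and Rab3, 10 means or differences were recomputed under 138 alternatives, of which 116 kept the direction and 22 turned it. Of those fitted in limma, 0 had an adjusted p under 0.05 (smallest 0.222). The means of Cy5-treated arrays alone, also among the 138, were not fitted and have no p value. The 116 include alternatives that could not change a value, so they overstate how steady the signs are. These were admitting fewer arrays, keeping single-symbol probes only, and leaving out an array on which the gene had no value. Rop, on 1 array, had no alternative. With ratios as deposited, alphaSnap turned to -0.36 at 12 h and -0.38 over all times, unc-13 to -0.13 over all times, and the alphaSnap difference of 2 d minus 12 h to 0.27. As deposited and uncentred, alphaSnap stood at -0.48 and -0.50 and unc-13 over all times at -0.41. On Cy5-treated arrays alone alphaSnap stood at -0.27 at 12 h and -0.28 over all times. Without centring, unc-13 at 12 h stood at 0.50, Rab3 at 0.36 at 12 h and 0.0448 over all times, and the Rab3 difference of 7 d minus 12 h at -0.73; the median of all tested probes, -0.05 at 12 h, -0.06 at 2 d and 0.11 at 7 d, became 0.47, -0.17 and -0.23. Requiring both spots gave unc-13 0.0523 at 12 h. Leaving out 1 array gave -0.10 to 0.31 for alphaSnap, -0.12 to 0.12 for unc-13 and -0.29 to 0.11 for Rab3 at 12 h, -0.33 to -0.03 for alphaSnap at 2 d, -0.33 to 0.20 for Rab3 at 7 d, -0.53 to -0.11 for the alphaSnap difference and -0.23 to 0.35 for the Rab3 difference. Over all times it gave 5.56e-05 to 0.26 for alphaSnap, 0.0457 to 0.28 for unc-13 and -0.21 to -0.00596 for Rab3. The cause of these turns was not tested. Of 7 counts of passing probes, each 0, 97 of 102 alternatives gave 0. The exceptions were 1 at 12 h and 2 over all times as deposited and uncentred, 10 at 7 d without centring, 24 over all times as deposited, and 1 over all times with single-symbol probes only, which was CG11089 (0.83 ± 0.52, n = 9 arrays, adjusted p 0.00892 in limma).

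The labels give numbers 1 and 2 at every time. Deviations of same-numbered arrays from their time's mean correlated across probes at 0.108, 0.122 and 0.159 for number 1 and at 0.134, 0.00279 and 0.207 for number 2, and those of differently numbered arrays at 0.0768 to 0.164. As 1 of the 6 was under 0.1 and no label ties the numbers to a shared source, the arrays were not treated as paired. With the numbers as a replicate block, 0 probes passed in each contrast between times, and the differences were -0.04 for alphaSnap and 0.20 for Rab3.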

Other observations

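Among vesicle genes on fewer arrays, CASK, a scaffold gene of the active zone, lay below the array median on all 3 arrays that measured it as deposited, at -0.56 ± 0.11, and averaged 0.27 ± 0.61 turned. Of the 780 probes with values on exactly 3 arrays, 29.1% likewise had 1 sign on all of them as deposited. Turned, 25.6% had, and CASK had not. RabX6, a fly Rab GTPase gene, lay above it on its 3 arrays, all of 7 d, at 0.53 ± 0.32 as deposited and -0.41 ± 0.53 turned. Both were picked out after their values were seen. For RabX6, 27.2% of the 865 probes tested at 7 d likewise kept 1 sign over all their arrays as deposited, and 15.5% did when turned.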
